A study of Mus musculus with 32 samples.

Results

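NRF2 is the transcription factor that switches on antioxidant and detoxifying genes, and 10 genes of its pathway were followed here in mouse lung. They are Nfe2l2, which encodes NRF2, its inhibitor Keap1, and the targets Gclc, Gclm, Slc7a11, Gpx2, Txnrd1, Srxn1, Nqo1 and Hmox1. Members were taken by gene name, from a list drawn up with earlier results of these data known, and they are 10 of the 41687 rows of the deposited count table. All 10 passed the filter on low counts in every comparison. Between Bmal1 knockout (KO) and wild-type (WT) lung, only Gclc differed past the threshold, at 131% of the WT mean in rRNA-depleted libraries and 124% in polyadenylated RNA. Levels of Nfe2l2 and Keap1 showed no difference past the threshold. Between library preparations, Gpx2 was 2.40-fold and 2.46-fold higher with polyA selection, against rRNA-depleted and unselected libraries in that order. Slc7a11 was at 0.444 and 0.498 times its level, the second value close to the threshold used there. Of all rows, 23.6% and 25.1% passed that threshold. The median absolute log2 difference of the 10 genes was 0.34 and 0.46, beside 0.56 and 0.59 over all rows. Gclc and Nfe2l2 did not differ past the threshold with polyA selection.

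In resting cells KEAP1 holds NRF2 in the cytoplasm and presents it to a CUL3 ubiquitin ligase, so that NRF2 is degraded. Electrophiles and oxidants modify cysteines of KEAP1, after which NRF2 reaches the nucleus, pairs with a small MAF protein and binds antioxidant response elements. Its targets make and use glutathione, run the thioredoxin system, reduce quinones and break down heme. BMAL1, the product of Arntl, pairs with CLOCK on E-box sequences and drives the circadian clock, and Nfe2l2 has been described as a gene under clock control in mouse lung.

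Lungs came from 12 adult mice of 8 to 18 weeks, 6 WT of the strain labelled C57b/6 and 6 Bmal1 knock-outs, bred in-house and all labelled female. RiboZero libraries were depleted of ribosomal RNA by pull-down and PolyA libraries were selected for polyadenylated RNA, each for 6 WT and 6 KO mice from 200 ng of RNA. NoSelect libraries had neither step and were made for mice 3 to 6 of each genotype (4 WT, 4 KO), from 15 ng in each of 6 preparations per mouse. The knockout allele, the cells in which it acts and the time of day of collection are not given in the sources used here. Since the labels number the mice, each library of a group is a separate animal.

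Total counts ran from 11638590 to 25801192 in RiboZero, from 29924271 to 41548759 in PolyA and from 74979759 to 115059730 in NoSelect, where Lars2 and a Gm42418 transcript took 67.8% to 71.5%. Arntl, the targeted gene, was lower in every KO than in every WT library in RiboZero (19.1 to 23.6 against 34.1 to 42.6 CPM) and in NoSelect (5.81 to 6.58 against 9.70 to 10.4 CPM), while its PolyA values overlapped (26.8 to 32.4 against 31.9 to 37.9 CPM). The NoSelect library of KO mouse 6 carries the tissue label Liver, but its Alb was 0.139 CPM, within the 0.0267 to 0.340 CPM of the other NoSelect libraries, and its Sftpc was 1895 CPM against 1126 to 1826. It was kept as lung. KO mouse 6 went against its sex label in all 3 preparations, with Xist at 0.0722 to 0.139 CPM against 413 or more in other mice and with Ddx3y detected in no other mouse. It held the highest KO value of 6 members in RiboZero and of 7 each in PolyA and NoSelect, so values without it are given beside the results they touch.

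Promoter sequences are shown because the pathway is defined by a DNA element, and they were read from RefSeq on GRCm38.p6 for 8 of the 10 genes, in 10 windows of 250 bases before to 50 bases after a start site. Hmox1 and Gclc were not among them. An element core of the form TGANNNNGC was searched on both strands. It lies in 8 of the 10 windows, from 7 of the 8 genes, beside 41.3% of 32851 promoters of the same length. The stricter TGACNNNGC, a subset of it, was present in 1 window of each of 4 genes, beside 12.4% of promoters. The E-box CACGTG occurs in 0 of the 10 windows, beside 7.15% of promoters. At so low a share, its absence from 10 windows says little about these genes. Other forms of the E-box and sequence outside the windows were not searched. Nfe2l2 is printed as the gene of the factor, Srxn1 for its 4 matches and Gpx2 for its large preparation difference. The 250 bases before each start are given 5′ to 3′ on the gene's strand, with matches to TGANNNNGC on either strand in capitals. They lie at chr2:75704664-75704913 (minus strand), chr2:152105274-152105523 (plus strand) and chr12:76795555-76795804 (minus strand), in that order.
Nfe2l2: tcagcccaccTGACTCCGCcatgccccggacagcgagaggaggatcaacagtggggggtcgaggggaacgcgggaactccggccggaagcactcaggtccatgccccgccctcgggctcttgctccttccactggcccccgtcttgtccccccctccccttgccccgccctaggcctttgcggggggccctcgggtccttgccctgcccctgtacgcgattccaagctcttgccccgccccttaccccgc
Srxn1: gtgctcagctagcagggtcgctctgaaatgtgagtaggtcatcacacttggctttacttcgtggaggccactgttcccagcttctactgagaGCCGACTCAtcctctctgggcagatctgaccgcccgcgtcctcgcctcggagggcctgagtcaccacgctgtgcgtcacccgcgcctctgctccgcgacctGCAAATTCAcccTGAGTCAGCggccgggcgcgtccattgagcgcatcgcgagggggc
Gpx2: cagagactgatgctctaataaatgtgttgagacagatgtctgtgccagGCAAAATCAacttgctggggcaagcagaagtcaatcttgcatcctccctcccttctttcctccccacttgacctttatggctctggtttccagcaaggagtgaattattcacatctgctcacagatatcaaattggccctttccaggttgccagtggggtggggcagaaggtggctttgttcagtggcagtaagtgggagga
Read on the strand that carries the core, the Nfe2l2 match is TGACTCCGC at -240 from the start, and the Gpx2 match is TGATTTTGC at -202. In Srxn1 the cores are TGAGTCGGC at -158, TGAATTTGC at -57 and TGAGTCAGC at -45, with TGACCTAGC at 28, past the printed stretch. Keap1 holds TGAACCTGC at -61 and Gclm TGACGGTGC at -134. Slc7a11 holds TGAGAAAGC at -97, TGATGATGC at -45 and TGATAGGGC at 41, and of the 3 Txnrd1 windows 2 hold a core, TGACAAAGC at -92 and TGAAACCGC at -84. No core was found in the Nqo1 window, which says only that these letters are not in it.

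Levels were compared between genes per kb of the longest coding transcript, as normalised CPM (read counts scaled to the library total) per kb in WT mice. In RiboZero Nfe2l2 was highest at 60.0 ± 5.06 (SD, n = 6), above Gclc at 25.3 ± 0.735 and Txnrd1 at 21.9 ± 2.03, and these 3 did not overlap between mice. Next came Gpx2 at 13.8 ± 2.70, Keap1 at 12.6 ± 0.607 and Hmox1 at 12.1 ± 1.60, which overlapped with each other. Gclm at 5.57 ± 0.359 and Nqo1 at 3.53 ± 0.604 were apart from their neighbours, and Slc7a11 was last at 0.478 ± 0.170 (SD, n = 6 each). The Srxn1 row, at 0.562 ± 0.654 (SD, n = 6), was not placed in the order, since another row of the table moved against it. Nfe2l2 was also first in PolyA (76.9 ± 9.59, SD, n = 6) and in NoSelect (16.7 ± 0.798, SD, n = 4). In PolyA, Gpx2 was second at 40.8 ± 9.11, overlapping with Gclc at 31.3 ± 1.95 (SD, n = 6 each). The place of Gpx2 rests on the length used, since its longest coding transcript has 1067 bases and the union of its exons 3222. Per kb of exon union it was seventh in RiboZero at 4.56 ± 0.893 and sixth in PolyA at 13.5 ± 3.02 (SD, n = 6 each), while Nfe2l2 stayed first and Slc7a11 last of the genes placed.

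**Figure D1:**
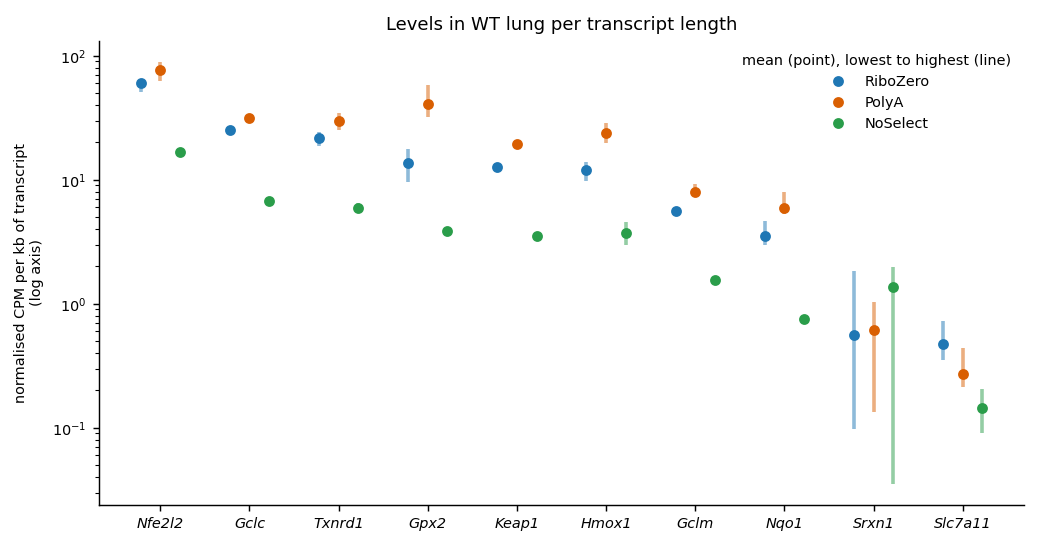
Levels of the 10 genes in WT lung, with normalised CPM per kb of the longest coding transcript on a log axis, as the mean (point) and the lowest to highest mouse (line) for 6 RiboZero, 6 PolyA and 4 NoSelect libraries. Heights are compared between genes within a preparation; Nfe2l2 is at the top of each and Slc7a11 at the bottom, and Srxn1 is drawn from its own row alone.

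Each preparation was fitted by itself to ask whether the antioxidant genes differ between genotypes. A gene was called at an adjusted p under 0.05 (edgeR, all rows tested). Of the 10 genes, 1 was called higher in RiboZero, where 3.46% of all 16710 rows were called and 1.84% were higher. In PolyA 1 of the 10 was higher, where 4.03% of 17211 rows were called and 1.62% were higher. In NoSelect 0 of the 10 were called, where edgeR called 2.17% of 17124 rows and 1.19% as higher. DESeq2 called 1 of the 10 there, and 2 had an unadjusted p under 0.05, as had 15.7% of all rows. No member was called lower in KO. A single gene, Gclc, accounts for both calls. The median log2 fold change of the 10 genes was 0.05 in RiboZero, 0.03 in PolyA and 0.00 in NoSelect, beside a median of 0.00 over all rows in each. Their median absolute log2 fold change was 0.07, 0.11 and 0.11, beside 0.09, 0.10 and 0.09 over all rows.

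**Figure D2:**
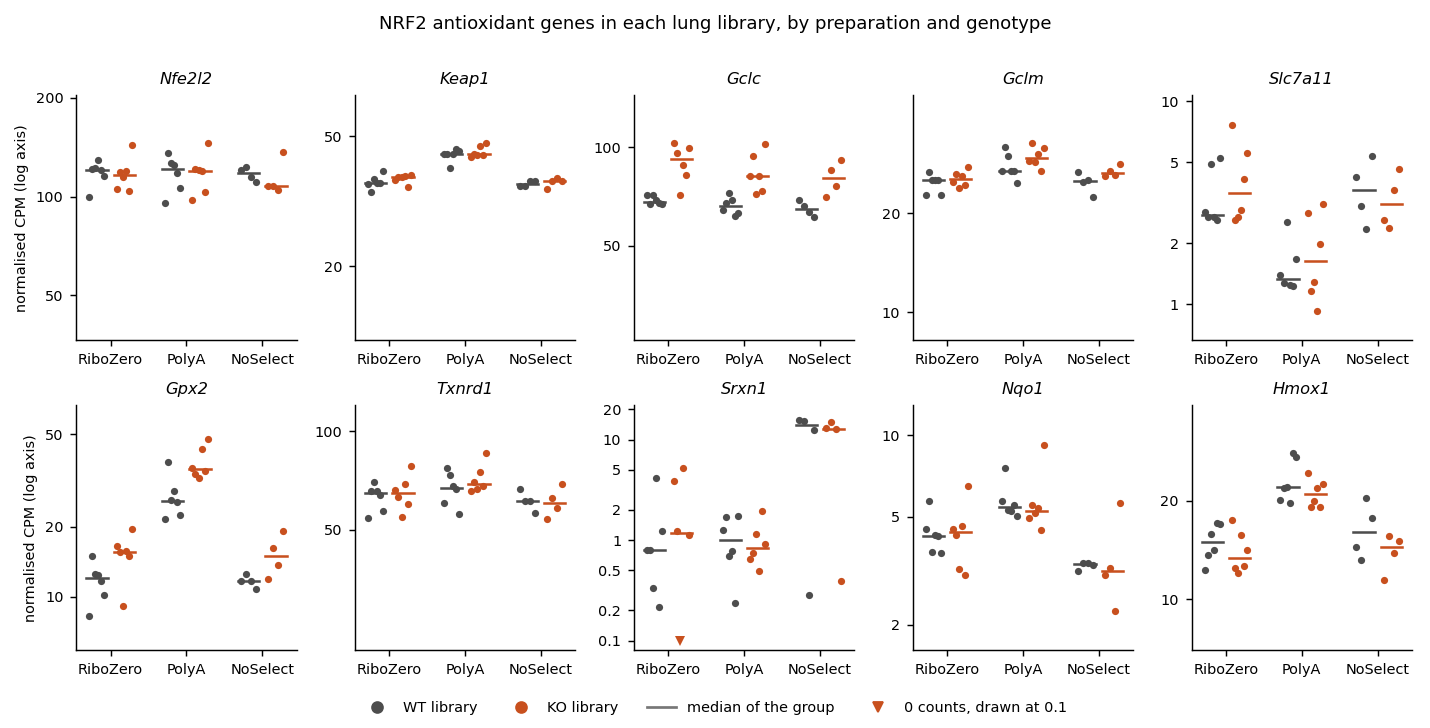
Each of the 32 libraries as a point, with normalised CPM on 1 scale for all libraries (log axis) by preparation and genotype (WT grey, KO orange), and the group median as a bar. Gclc KO values sit above most WT values in each preparation, Nfe2l2 and Keap1 groups lie over each other, Gpx2 is raised in PolyA, and Srxn1 spreads over more than a decade, with 1 library at 0.

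Of the regulators, Nfe2l2 (chr2:75675513-75704641, minus strand) had 125, 152 and 162 CPM as lowest, median and highest of the 6 WT RiboZero libraries and 131, 147 and 180 CPM in the 6 KO libraries. Here CPM are scaled within a preparation. The ranges overlap, with KO mouse 6 as the only library above the WT range. In PolyA the WT values were 154, 194 and 221 CPM and the KO values 157, 188 and 225 CPM, and again only KO mouse 6 exceeded the WT range. The 4 WT NoSelect libraries held 42.6, 43.3, 40.6 and 39.0 CPM and the 4 KO libraries 37.8, 38.0, 37.0 and 48.1 CPM, so 3 KO values were below all WT values and that of mouse 6 was above them. Log2 fold changes of Nfe2l2 were -0.01 in RiboZero (95% interval -0.18 to 0.17), -0.04 in PolyA (-0.25 to 0.17) and -0.04 in NoSelect (-0.24 to 0.15). Without KO mouse 6 they were -0.07, -0.09 and -0.14, with adjusted p of 0.643, 0.621 and 0.15 in edgeR.

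Keap1 (chr9:21229730-21239361, minus strand) showed no difference past the threshold. Its WT mean was 45.6 ± 2.19 CPM in RiboZero, 70.7 ± 3.39 in PolyA (SD, n = 6 each) and 12.6 ± 0.281 in NoSelect (SD, n = 4). KO means were 46.6 ± 1.52, 70.7 ± 2.17 (SD, n = 6 each) and 12.7 ± 0.424 (SD, n = 4). The groups overlapped in each preparation. The 95% intervals of the log2 fold change were -0.05 to 0.12, -0.08 to 0.08 and -0.07 to 0.09. Without KO mouse 6 the fold changes of Keap1 were 0.02, -0.0047 and 0.01 on the log2 scale. The predicted gene Gm16754 lies on the opposite strand of Keap1. The kits keep the strand, per the labels' protocols, but whether counting used it is not given in the sources used here.

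Of the genes that make glutathione, Gclc (chr9:77754535-77794485, plus strand) encodes the catalytic subunit of glutamate-cysteine ligase, the rate-limiting enzyme. Its lowest, median and highest RiboZero values were 84.6, 85.7 and 90.0 CPM in WT and 89.5, 116 and 130 CPM in KO. All KO libraries but that of mouse 3, the RiboZero library with the lowest total, were above every WT library. In PolyA the WT values were 98.2, 107 and 117 CPM and the KO values 114, 130 and 157 CPM, with mouse 3 again the only KO library inside the WT range. NoSelect values were 24.4, 23.3, 22.4 and 21.6 CPM in WT and 24.7, 30.1, 27.0 and 32.0 CPM in KO. Here all 4 KO libraries were above all 4 WT libraries, as for 4.89% of all rows tested. Gclc rose by a log2 of 0.39 in RiboZero (SE 0.076, adjusted p 0.0138) and 0.31 in PolyA (SE 0.078, adjusted p 0.0447). In NoSelect its log2 fold change was 0.31 (SE 0.080, adjusted p 0.0983, edgeR), which missed the threshold.

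The RiboZero call of Gclc held when any 1 of the 12 libraries was left out (adjusted p 0.000986 to 0.0376), but with mice 3 to 6 alone it was lost (0.31, adjusted p 0.14, edgeR). The PolyA call was lost in 8 of 12 such fits, without WT mouse 1, 4, 5 or 6 or KO mouse 1, 2, 4 or 6, with adjusted p up to 0.0989. In PolyA it was also lost without a filter on low counts (0.32, adjusted p 0.0542) and with mice 3 to 6 alone (0.27, adjusted p 0.221, edgeR). Without KO mouse 6 the log2 fold changes were 0.36 (adjusted p 0.0277), 0.26 (0.0604) and 0.25 (0.122) in RiboZero, PolyA and NoSelect. In bulk lung, more cells of a type and more RNA per cell cannot be told apart. Neutrophil markers had a log2 fold change above 0 for 4 of 4 genes in each preparation, with 0, 1 and 0 called, and their summed level was 15.1 to 25.5 CPM in WT and 14.0 to 84.4 CPM in KO RiboZero libraries, 21.7 to 39.7 and 21.7 to 144 CPM in PolyA, and 3.73 to 4.31 and 3.75 to 17.4 CPM in NoSelect. Club and secretory markers were above 0 for 5 of 5 and ciliated markers for 4 of 4 genes in each preparation, with 0 called. Their RiboZero sums were 10076 to 16743 CPM in WT and 12998 to 17770 CPM in KO for club, and 268 to 423 and 277 to 491 CPM for ciliated markers. Alveolar macrophage markers were below 0 for 3, 5 and 5 of 5 genes, with 1 called, Mrc1 in PolyA (-0.38, adjusted p 0.0401, edgeR), and their RiboZero sums were 221 to 447 CPM in WT and 251 to 465 CPM in KO. Erythroid markers were below 0 for 5 of 5 genes in RiboZero and PolyA and above 0 for 5 of 5 in NoSelect, with none called, and summed to 265 to 1879 CPM in WT and 243 to 1389 CPM in KO RiboZero libraries. None of these markers was at 0 in a whole group, and their part in the Gclc result was not tested.

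Gclm (chr3:122245557-122270732, plus strand), the modifier subunit of the same enzyme, did not pass the test. Its lowest, median and highest RiboZero values were 28.6, 31.7 and 33.8 CPM in WT and 30.1, 32.1 and 34.8 CPM in KO. PolyA gave 40.5, 43.2 and 51.8 CPM in WT and 43.3, 47.0 and 51.0 CPM in KO. In NoSelect the WT values were 9.43, 8.81, 8.91 and 7.95 CPM and the KO values 9.13, 9.53, 9.29 and 9.91 CPM, overlapping as in the other preparations. Log2 fold changes of Gclm were 0.05 (95% interval -0.06 to 0.16), 0.07 (-0.07 to 0.20) and 0.11 (-0.02 to 0.24), and without KO mouse 6 they were 0.02, 0.06 and 0.09. Of its 31-base words 5.61% also occur in other genes, mostly Ppia.

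Slc7a11 (chr3:49892526-50443614, minus strand) imports cystine, the source of cysteine for glutathione, and it was among the scarcest of the 10 genes. It had 38 to 260 counts per RiboZero library. The lowest, median and highest RiboZero values were 3.27, 3.48 and 6.68 CPM in WT and 3.26, 4.43 and 9.67 CPM in KO. PolyA gave 1.96, 2.16 and 4.08 CPM in WT and 1.46, 2.61 and 4.83 CPM in KO. NoSelect gave 1.51, 1.08, 0.830 and 1.90 CPM in WT and 0.913, 0.837, 1.29 and 1.63 CPM in KO, and the genotypes overlapped in each preparation. Its log2 fold changes of 0.30, 0.25 and -0.18 came with 95% intervals of -0.35 to 0.95, -0.43 to 0.92 and -0.86 to 0.50, so a difference of the size seen for Gclc was not detectable for it. Without KO mouse 6 the values of Slc7a11 were 0.21, 0.06 and -0.39 (adjusted p 0.807, 0.947 and 0.556, edgeR).

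Gpx2 (chr12:76792333-76795554, minus strand) encodes an epithelial glutathione peroxidase, a selenoprotein that reduces hydroperoxides. Its lowest, median and highest RiboZero values were 10.3, 15.2 and 18.8 CPM in WT and 11.4, 19.6 and 24.5 CPM in KO. In PolyA they were 34.5, 41.2 and 61.8 CPM in WT and 51.4, 56.5 and 73.3 CPM in KO, and the WT range reached into the KO range through WT mouse 2 alone. NoSelect gave 4.10, 4.42, 4.11 and 3.82 CPM in WT and 4.17, 5.68, 4.85 and 6.72 CPM in KO, with 3 of 4 KO values above the WT range. Log2 fold changes of Gpx2 were 0.39 (SE 0.164, adjusted p 0.254), 0.46 (SE 0.136, adjusted p 0.0897) and 0.38 (SE 0.135, adjusted p 0.216) in edgeR, none of them past the threshold. In PolyA it was called without WT mouse 2 (0.59, adjusted p 0.00801), with mice 3 to 6 alone (0.59, adjusted p 0.0376) and by DESeq2 (0.46, adjusted p 0.0203). Without KO mouse 6 the values were 0.31, 0.40 and 0.25 (adjusted p 0.381, 0.135 and 0.261). Of the 31-base words of Gpx2, 9.24% also occur in the pseudogene Gpx2-ps1, whose row held at most 5.34 counts in any library, and the gene Fntb overlaps it on the other strand.

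Txnrd1 (chr10:82833951-82897712, plus strand) encodes the cytosolic thioredoxin reductase, which passes electrons from NADPH to thioredoxin. Its lowest, median and highest RiboZero values were 68.4, 81.6 and 88.1 CPM in WT and 68.9, 81.4 and 98.8 CPM in KO. PolyA gave 92.1, 107 and 126 CPM in WT and 105, 109 and 132 CPM in KO, and NoSelect ranged from 19.8 to 23.5 CPM in WT and from 19.0 to 24.3 CPM in KO. The genotypes overlapped in each preparation. Log2 fold changes of Txnrd1 were 0.05 (95% interval -0.13 to 0.24), 0.07 (-0.11 to 0.24) and -0.01 (-0.19 to 0.17). Without KO mouse 6, the highest KO library in each preparation, they were -0.0055, 0.02 and -0.07, so the sign turned in RiboZero.

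Nqo1 (chr8:107388225-107403206, minus strand), a quinone reductase and a classic NRF2 target, had 45 to 160 counts per RiboZero library. Its RiboZero values ran from 4.64 to 7.20 CPM in WT and from 3.83 to 8.16 CPM in KO, with medians of 5.36 and 5.53 CPM. PolyA medians were 8.71 CPM in WT and 8.30 CPM in KO, and KO mouse 6 stood at 14.2 CPM. The NoSelect libraries held 1.11, 1.19, 1.20 and 1.17 CPM in WT and 1.07, 1.14, 0.798 and 1.97 CPM in KO, where mouse 6 was again apart. The log2 fold changes of Nqo1 were 0.01, -0.03 and 0.10, and -0.14, -0.20 and -0.22 without KO mouse 6 (adjusted p 0.713, 0.36 and 0.476 in edgeR). Leaving out that mouse turned the sign in RiboZero and NoSelect, and no value passed the threshold.

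Hmox1 (chr8:75093621-75100589, plus strand) encodes the inducible heme oxygenase. Its RiboZero values were 15.4, 18.8 and 21.6 CPM as lowest, median and highest in WT and 15.1, 16.8 and 22.0 CPM in KO. In PolyA they were 31.4, 35.6 and 44.7 CPM in WT and 29.8, 33.0 and 38.9 CPM in KO. NoSelect values were 5.13, 4.67, 7.23 and 6.25 CPM in WT and 4.02, 5.49, 4.93 and 5.28 CPM in KO. The log2 fold changes of Hmox1 were -0.09 (95% interval -0.32 to 0.15), -0.16 (-0.38 to 0.05) and -0.24 (-0.58 to 0.10), and the groups overlapped throughout.

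Srxn1 (chr2:152105516-152111376, plus strand) encodes sulfiredoxin, which restores over-oxidised peroxiredoxins, and its row spread widely within each group. Its RiboZero values ran from 0.273 to 5.21 CPM in WT and from 0 to 6.61 CPM in KO. The 95% interval of its log2 fold change was -1.28 to 2.56 in RiboZero, -1.12 to 0.83 in PolyA and -2.40 to 2.20 in NoSelect. A second row of the table moved against it across libraries, as described after the preparations.

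**Figure D3:**
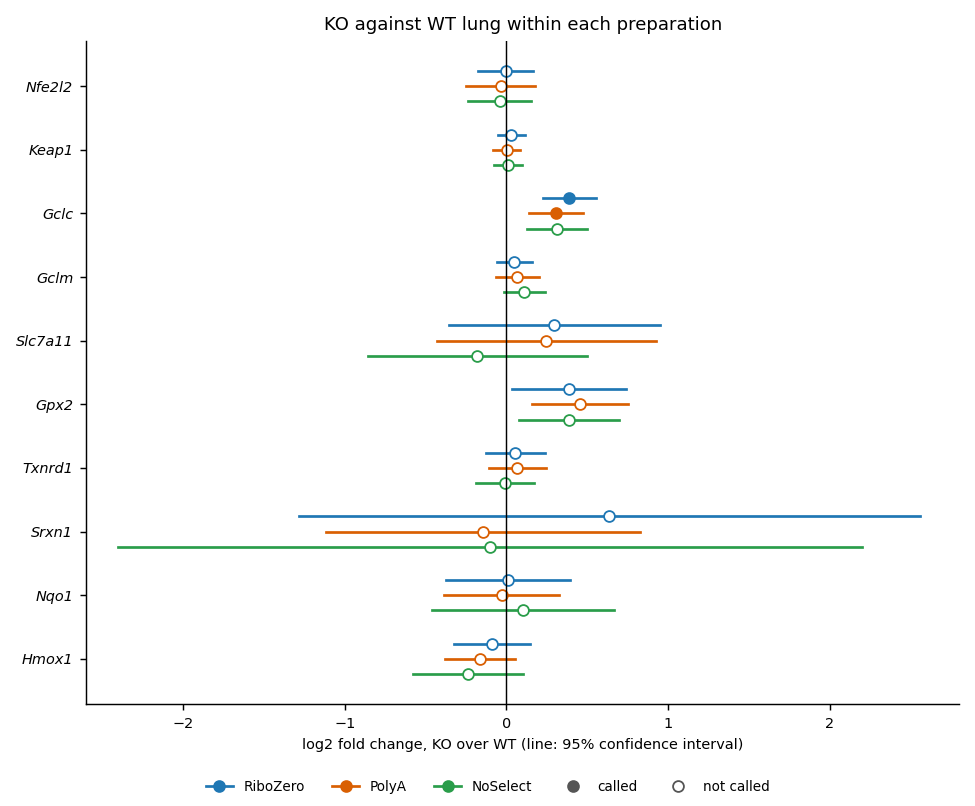
Log2 fold change of KO over WT for the 10 genes in RiboZero (blue), PolyA (orange) and NoSelect (green), with the 95% confidence interval as a line and filled points for calls. Gclc is filled in RiboZero (0.39) and PolyA (0.31), the Gpx2 points lie between 0.38 and 0.46 unfilled, and the Srxn1 intervals are the widest.

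Around the 10 genes, 66 further genes of redox and detoxifying pathways were examined in 7 lists. In RiboZero 64 were tested, with 2 higher and 1 lower in KO. In PolyA 66 were tested, with 3 higher and 1 lower, and in NoSelect 64, with 1 higher and 1 lower. Over all rows, 3.46%, 4.03% and 2.17% were called in these preparations, so the shares are near the background. The median log2 fold change of the 66 genes was 0.02 in each preparation, and 61 were called in none. In all 3 preparations 2 genes were called. Gsta3, a glutathione S-transferase that conjugates electrophiles, fell to 46.3 ± 9.05 CPM in KO from 89.4 ± 8.13 CPM in WT in RiboZero (SD, n = 6 each), by a log2 of -0.95 (SE 0.116, adjusted p 0.000548). Its log2 fold changes were -0.72 in PolyA (adjusted p 0.00667) and -1.07 in NoSelect (adjusted p 0.00459, edgeR). Prdx5, a peroxiredoxin that reduces peroxides, rose by 0.40, 0.46 and 0.32 (adjusted p 0.00401, 0.00109 and 0.0174, edgeR). Every KO library of Prdx5 was above every WT library in NoSelect, as for 4.89% of all rows tested. Gsta3 and Prdx5 were named for their calls in all 3 preparations, so this adds no separate support.

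Among 12 regulators and partners of NRF2, including Bach1, Cul3, Sqstm1 and the small MAF genes, 1 was called in any preparation. That was Nfe2l3, an NRF2 relative, which rose in RiboZero (0.73, SE 0.167, adjusted p 0.031) and had 0.38 and 0.68 in PolyA and NoSelect (adjusted p 0.252 and 0.118). Of 12 glutathione genes Gsr, which regenerates glutathione, was called beside Gsta3, in PolyA only (0.24, adjusted p 0.0302), with 0.22 and 0.19 in the other preparations. Of 8 detoxification genes the carbonyl reductase Cbr3 was called in PolyA (0.43, adjusted p 0.0362), with 0.44 and 0.50 in RiboZero and NoSelect (adjusted p 0.0665 and 0.0995, edgeR). These 3 genes were named after their values were seen. In the lists for thioredoxin (4 genes), NADPH supply (6 genes) and heme and iron (5 genes), 0 were called in any preparation.

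Preparations were compared over both genotypes to ask how the library method moves each gene, with CPM on 1 scale for all 32 libraries. Calls here needed a difference of at least 1 on the log2 scale, up or down, besides the adjusted p under 0.05. Between PolyA and RiboZero 2 of the 10 genes were called, beside 23.6% of all 18164 rows. Between PolyA and NoSelect 3 of 10 were called, beside 25.1% of 18372 rows. Between RiboZero and NoSelect 1 of 10 was called, beside 4.30% of 17502 rows. The members' shares are near those of all rows.

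Gpx2 had the largest rise with polyA selection. Its common-scale values ran from 21.5 to 47.5 CPM in PolyA, from 8.22 to 19.5 CPM in RiboZero and from 10.8 to 19.2 CPM in NoSelect. PolyA did not overlap with either, and it was higher in 12 of 12 and 8 of 8 mice. The same held for Keap1, at 39.9 to 47.6 CPM in PolyA against at most 39.0 CPM in RiboZero and 37.2 CPM in NoSelect. PolyA was also higher in all of these mice for Nqo1, Hmox1 and Gclm. How many of all rows moved the same way in every mouse, or had no overlap, was not counted. By the adjusted p alone, 81.1% of all rows differed between PolyA and RiboZero and 79.1% between PolyA and NoSelect. Such patterns are therefore not shown to be particular to these genes. The log2 differences of Gpx2 were 1.26 against RiboZero (SE 0.110, adjusted p 1.04e-10) and 1.30 against NoSelect (SE 0.108, adjusted p 5.76e-10), while RiboZero minus NoSelect was 0.00 (95% interval -0.24 to 0.25). Slc7a11 moved the other way, with 0.930 to 3.13 CPM in PolyA, 2.59 to 7.68 CPM in RiboZero and 2.35 to 5.39 CPM in NoSelect. It was lower with polyA selection in 12 of 12 and 8 of 8 mice, though the ranges overlapped. It fell by 1.17 on the log2 scale against RiboZero (SE 0.223, adjusted p 3.79e-05) and by 1.00 against NoSelect (SE 0.235, adjusted p 0.000601). The second value sits at the threshold of 1 and was short of it without KO mouse 2 (-0.96), WT mouse 2 (-0.97) or WT mouse 6 (-0.94). It was also short of 1 without a filter on low counts (-0.94) and without the rows of Lars2 and the Gm42418 transcript (-0.99).

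By the adjusted p alone, 6 of the 10 genes differed between PolyA and RiboZero, beside 81.1% of all rows, 8 between PolyA and NoSelect (79.1%) and 1 between RiboZero and NoSelect (45.9%). Hmox1 was higher in PolyA by a log2 of 0.61 and 0.58 (adjusted p 4.82e-08 and 7.58e-06), with no overlap between PolyA (19.1 to 28.0 CPM) and RiboZero (at most 17.5 CPM). Nqo1 was higher by 0.40 and 0.78 (adjusted p 0.0043 and 8.72e-05), and Keap1 by 0.28 and 0.34 (adjusted p 4.46e-10 and 2.71e-10). Gclm was higher by 0.20 in both comparisons (adjusted p 5.01e-05 and 0.00035), and Txnrd1 by 0.12 and 0.22 (adjusted p 0.0762 and 0.00292, edgeR). Past neither threshold were Nfe2l2, with 0.01 and 0.07 (adjusted p 0.935 and 0.399), and Gclc, with -0.07 and 0.09 (adjusted p 0.233 and 0.21). RiboZero against NoSelect gave an absolute log2 of at most 0.12 for 8 of the 10 genes, the exceptions being Nqo1 (0.34, adjusted p 0.0727, edgeR) and Srxn1. These fits did not pair the libraries of a mouse. Nqo1, Gclc and Txnrd1 were higher in RiboZero than in NoSelect in 8 of 8 mice, and Nfe2l2 in 7. How many of all rows moved the same way in these mice was not counted. Over 8 alternative fits (edgeR or DESeq2), the adjusted p ran from 0.00198 to 0.227 for Nqo1 and from 0.00144 to 0.332 for Gclc. It ran from 0.00433 to 0.523 for Txnrd1 and from 0.00433 to 0.865 for Nfe2l2, so the result depended on the fit. Keap1, Hmox1, Gclm, Slc7a11 and Gpx2 passed in no alternative.

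**Figure D4:**
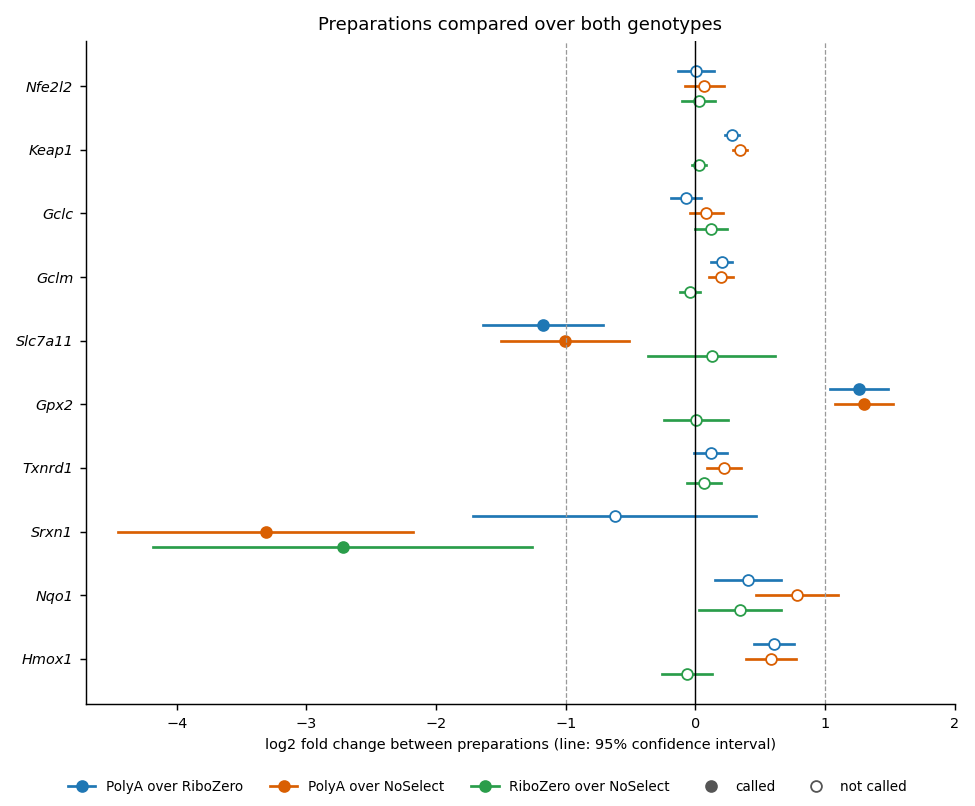
Log2 differences between preparations for the 10 genes, PolyA over RiboZero (blue), PolyA over NoSelect (orange) and RiboZero over NoSelect (green), with 95% confidence intervals as lines, filled points for calls and dashed lines at -1 and 1. Gpx2 lies beyond 1 and Slc7a11 at or beyond -1 in both PolyA comparisons, and Srxn1 is filled at -3.31 and -2.72.

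For Srxn1 the row of the gene fell by 3.31 on the log2 scale in PolyA (adjusted p 1.23e-05) and by 2.72 in RiboZero (adjusted p 0.00324, edgeR), both against NoSelect. These are values of that row alone, and they turn when it is summed with the row of transcript ENSMUST00000099225, which is not in GENCODE M21. Over 18480 rows searched, this row moved most against Srxn1 by the weakest of 3 correlations, with a Pearson correlation across libraries of -0.56 in RiboZero (n = 12), -0.57 in PolyA (n = 12) and -0.97 in NoSelect (n = 8), as a description of a row picked for it. The next row in this order had -0.55 as its weakest correlation and -0.57 in NoSelect. In NoSelect the transcript row was at 0 in 6 of 8 libraries, where Srxn1 had 327 to 554 counts. In KO mouse 6 it held 702 counts and Srxn1 16.0, and in WT mouse 5 it held 492 counts and Srxn1 8.90. Srxn1 took 1.78% to 100% of the sum of both rows in NoSelect, 1.11% to 11.2% in PolyA and 0% to 33.3% in RiboZero.

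The coefficient of variation across libraries was 61.6% for the Srxn1 row and 14.9% for the sum of both rows in NoSelect, 54.1% and 9.25% in PolyA, and 113% and 11.8% in RiboZero. A sum with a row picked for moving against Srxn1 varies less by that choice, so these values support nothing further. With the sum in place of the Srxn1 row, an alternative chosen after seeing the data, the differences against NoSelect turned positive, to 0.50 in PolyA (adjusted p 2.58e-06) and 0.11 in RiboZero (adjusted p 0.275, edgeR). KO against WT then gave log2 fold changes of 0.00 (SE 0.093), 0.04 (SE 0.080) and -0.02 (SE 0.116) for Srxn1 in RiboZero, PolyA and NoSelect. What the transcript row represents is not given in the sources used here, and whether the counts of 1 gene are divided between both rows was not tested.

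**Figure D5:**
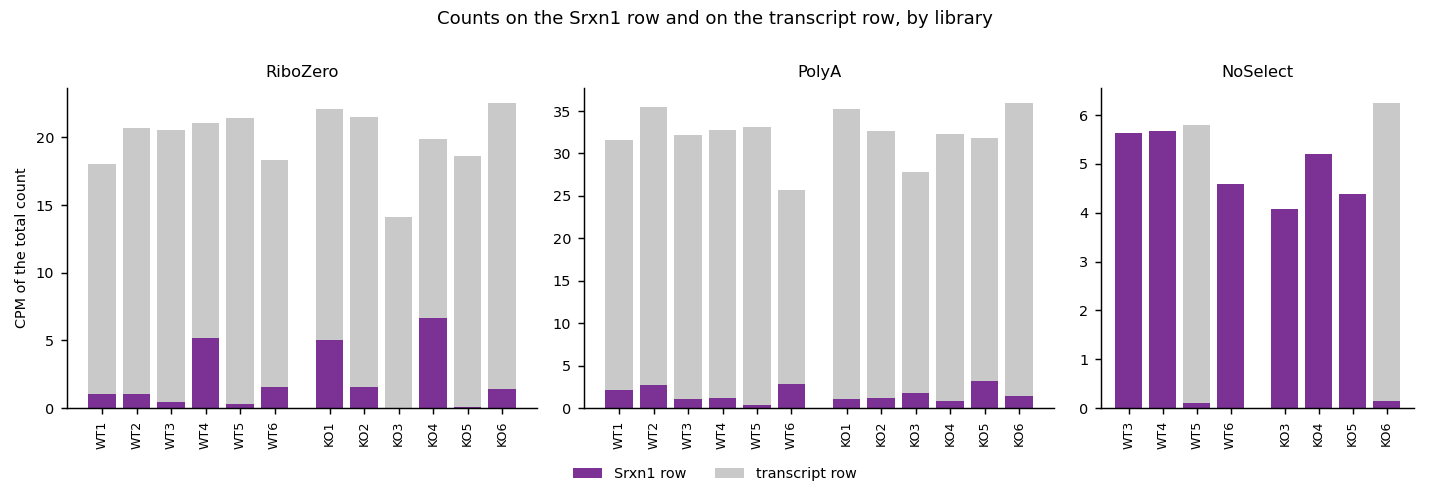
CPM of the total count in each of the 32 libraries, on the Srxn1 row (purple) and the transcript row (grey), stacked, by preparation and mouse, with a scale of its own in each panel. The stacked totals vary little within a preparation, while the purple part is the whole bar in 6 of 8 NoSelect libraries and nearly absent in WT5 and KO6.

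The difference of the KO effect between preparations was tested as an interaction for each gene, in 30 tests. None of the 10 genes was called in any pair, with or without the mouse as a block. The main fits did not pair the libraries of a mouse. In them none of the 10 had an unadjusted p under 0.05, beside 1.82%, 2.24% and 1.39% of all rows. With the mouse as a block, 940 of 18164, 1556 of 18788 and 730 of 18379 rows had an unadjusted p under 0.05 (edgeR). The intervals below are from the unpaired fits and may be wider than paired ones. Over all rows edgeR called 0 for each pair (0%), and 1 for each pair with the mouse as a block, while DESeq2 called 12, 15 and 9. For Gclc the effect differed by -0.06 between PolyA and RiboZero (95% interval -0.29 to 0.18), by -0.03 between PolyA and NoSelect (-0.29 to 0.24) and by 0.07 between RiboZero and NoSelect (-0.18 to 0.32). The intervals of Gpx2 were -0.37 to 0.55, -0.40 to 0.50 and -0.51 to 0.51. That Gclc was called in RiboZero and PolyA and not in NoSelect is therefore not shown to be a difference between preparations.

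Genes whose levels across mice were most like those of Nfe2l2 and Gclc were sought among 11628 rows with at least 100 counts on average, by the lower of the Pearson correlations of log2(CPM + 0.5) over the 12 RiboZero and the 12 PolyA libraries, which come from the same mice. For Nfe2l2 they were Swt1 (0.95 and 0.91), Etf1 (0.93 and 0.88) and Stx19 (0.88 and 0.94), all 3 with log2 fold changes in KO between -0.10 and 0.11. For Gclc they were Clcn3 (0.88 and 0.89), Htr1b (0.89 and 0.87) and Akap9 (0.90 and 0.86), and each of these rose in KO in at least 1 preparation. Htr1b, a serotonin receptor, rose by a log2 of 1.00, 0.87 and 0.85 in RiboZero, PolyA and NoSelect (adjusted p 0.00634, 0.0249 and 0.0353, edgeR). Clcn3 rose by 0.23 in RiboZero (adjusted p 0.00584), with 0.25 and 0.16 elsewhere, and Akap9 by 0.37 in PolyA (adjusted p 0.0362), with 0.11 in both other preparations. These correlations include the difference between genotypes and are given as a description.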

How the data were processed

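RNA from 12 mouse lungs was sequenced in 32 libraries, and the 32 columns of 1 table were matched to them by name. The authors deposited estimated counts per gene (12.81% not whole), and Salmon 1.4.0, UMI-tools 1.1.1 and GRCm38 are named per the submitters' processing notes, with no roles or settings. Whether reads were collapsed by molecule and which strand was counted are not given in the sources used here. Estimated counts were rounded and fitted with edgeR 4.0.16 in R 4.3.3 (TMM, filterByExpr, quasi-likelihood F-test, Benjamini-Hochberg over all rows tested). The same steps recovered known changes in simulated counts. Those changes were larger than the KO effect of Gclc and the simulated libraries shared no mice, so the check does not bear on changes of that size. Preparation fits held genotype as a covariate, and the main ones did not pair the libraries of a mouse. Symbols came for 37649 rows and positions from GENCODE M21. All 10 genes are named in every comparison, and other genes by list; the members and lists were chosen with earlier results of these data known. Libraries of 1 mouse deviated together (r 0.479 to 0.781 over 11805 rows, in 12, 8 and 8 pairs), so the mouse pairs preparations, while equal WT and KO numbers name different animals. No 2 of 72 replicate pairs agreed within sampling noise (lowest chi-square per degree of freedom 7.02).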

Additional observations from a re-analysis of the deposited data

Results flagged for a closer look

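In 8 of 60 groups of libraries (10 genes, 3 preparations, 2 genotypes), 1 library stood apart from the others by Dixon's test, where chance gives about 5% of groups. The same mice recur over genes and preparations, so the groups are not independent and no excess over chance is read from this count. All values are normalised CPM within a preparation, and 3 of the 8 are from KO mouse 6. Nfe2l2 was at 48.1 in NoSelect KO mouse 6, above the 37.0 to 38.0 of the other 3 KO mice. Nqo1 was at 14.2 in PolyA KO mouse 6, against 7.15 to 8.56 (n = 5), and at 12.3 in PolyA WT mouse 2, against 8.28 to 9.23 (n = 5). Keap1 was low at 64.3 in PolyA WT mouse 3, against 70.3 to 73.9, and at 43.7 in RiboZero KO mouse 5, against 46.4 to 47.7. Slc7a11 was at 4.08 in PolyA WT mouse 3, against 1.96 to 2.73. Srxn1 was at 0.137 in NoSelect KO mouse 6, against 4.52 to 5.27, and at 5.21 in RiboZero WT mouse 4, against 0.273 to 1.57. For Srxn1 in NoSelect KO mouse 6 the transcript row ENSMUST00000099225 held 702 counts.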

How the results depend on the processing

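Of 1742 recomputed values of the 10 genes, 1718 kept their side of the threshold, 17 lost a call, 5 gained one and 2 reversed. Among the 1718, 131 values past no threshold changed sign, 41 of them between KO and WT. Both reversals were Srxn1 summed with the transcript row, at 0.50 (PolyA) and 0.11 (RiboZero) against NoSelect, and the second left 0 of the 10 genes called there. The number of the 10 genes called between KO and WT became 0 in RiboZero with mice 3 to 6 alone, 2 (DESeq2) or 0 (no filter on low counts) in PolyA, and 1 (DESeq2) in NoSelect. With mice 3 to 6 alone it was 1 in PolyA, but the gene was Gpx2 in place of Gclc. It ran over left-out libraries from 0 to 2 in PolyA (0 without KO mouse 1, 2, 4 or 6 or WT mouse 1, 4, 5 or 6, 2 without WT mouse 2), and from 0 to 1 in NoSelect (1 without KO mouse 3, Gclc). It stayed at 1 in RiboZero. Rows called over the whole table went from 579, 694 and 372 to 973, 1379 and 881 with DESeq2 in RiboZero, PolyA and NoSelect, and to 255 in RiboZero with mice 3 to 6. Over left-out libraries they ran from 380 to 644, from 442 to 1066 and from 148 to 472. Between preparations, 4292 and 4619 rows (PolyA against RiboZero and NoSelect) became 6552 and 7039 without a filter, and 2560 and 2902 with at least 10 counts in every library. RiboZero against NoSelect went from 752 to 301 rows and from 1 to 0 of the 10 genes under that minimum, since fewer rows were tested and Srxn1 was not among them. Interactions went from 0 to 12, 15 and 9 rows with DESeq2, to 1 in RiboZero against NoSelect with mice 3 to 6, and from 0 to 2 over left-out mice in PolyA against NoSelect (2 without WT mouse 6). With the replicate number as a block, rows called between KO and WT were 372 in RiboZero and 103 in NoSelect, and 0 of the 10 genes were called in PolyA; these numbers pair no animals (r -0.157 to 0.249). With the mouse as a block, 1 row was called in each interaction. With that block, no call of the 10 genes between preparations changed at the log2 threshold of 1. Over all 8 alternative fits the Slc7a11 call between PolyA and NoSelect was kept in 6, and in 9 of 12 fits with 1 mouse left out. Apart from these constructions, the cause of each change was not tested. Slc7a11 and Nqo1 had 38 and 45 counts in their lowest RiboZero library, and the part of depth in their spread was not tested.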
